A study of Mus musculus with 21 samples.

Results

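L-gp130 splenic CD4 T cells were compared with control splenic CD4 T cells by RNA sequencing, using all 12 CD4 libraries among the 21 libraries of the series. The 6 L-gp130 libraries came from L-gp130fl/+;CD4Cre+/- mice and the 6 control libraries from CD4Cre+/- mice, so both groups carried the Cre transgene. All were C57BL/6J mice at postnatal day 35. By label, 4 L-gp130 mice were male and 2 female, and 1 control mouse was male and 5 female. CD4 cells were taken from spleen with CD4-directed magnetic beads by positive selection, and polyadenylated RNA of an integrity number above 7 was sequenced as unstranded pairs of 150 bases. The labels number a mouse for every library, so the spread below is between mice. The remaining 9 libraries, 3 L-gp130 and 6 control, are splenic CD8 T cells and enter only where transcript shares were looked up again in other libraries.

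Gp130, encoded by Il6st, is the shared signalling chain of the receptors for IL-6, IL-11, IL-27, leukaemia inhibitory factor and related cytokines. It works through JAK kinases and mainly STAT3, and in CD4 T cells this signal is known for promoting the TH17 and follicular helper fates and for restraining regulatory T cells. L-gp130 is an engineered, ligand-independent form of the chain that is held as a dimer by a leucine zipper. Cre under the Cd4 promoter acts from the double-positive thymocyte stage, so the allele is switched on in CD4 and CD8 T cells alike and before the cells reach the spleen. No source used here gives the sequence of the L-gp130 allele, and Il6st counts therefore need not include it.

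Library totals ran from 17781085 to 21226510 estimated reads in the L-gp130 group and from 27855757 to 35869208 in the control group, without overlap, so depth cannot be told apart from genotype. With every library thinned to 17781085 reads, 2674 of 14443 genes (18.5%) passed the test, close to the 18.9% at full depth. L-gp130 replicate 1 stood apart on the second principal component, at 56.9 where the other 11 libraries lay between -36.8 and 22.4. The library labelled control replicate 5 carries a female label but had 0.12 CPM (reads scaled to the library total) of Xist and 124 CPM of Ddx3y, a male pattern. Without both libraries, 3340 of 15032 genes (22.2%) passed. CD4 T cell markers summed to 2809 to 4077 CPM in L-gp130 libraries and 3297 to 4050 CPM in controls. Of these 8 markers only Zbtb7b passed the test. It was lower in every L-gp130 library, at 139 to 205 CPM against 231 to 294 CPM (log2 fold change -0.52). CD8 T cell markers summed to 123 to 219 CPM against 133.5 to 144.5 CPM, with overlap. None of the 3 passed, but Cd8a was higher in every L-gp130 library, at 15.1 to 93.7 CPM against 7.75 to 13.9 CPM. Markers of other cells were present in both groups. Erythroid markers summed to 6994 to 38300 CPM against 4843 to 27410 CPM, and macrophage and monocyte markers to 540.5 to 2243 CPM against 632 to 1410 CPM, in both cases with overlap. Plasma cell markers were higher in every L-gp130 library, at 241 to 341 CPM against 158 to 197 CPM, and stromal markers lower in every one, at 11.2 to 23.8 CPM against 28.4 to 55.1 CPM. None of the markers in these lists was at 0 in all libraries.

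Of 15016 genes tested with edgeR, 1673 (11.1%) were higher and 1163 (7.75%) were lower in L-gp130 cells at an adjusted p under 0.05. A positive fold change, called or not, was found in 49.5% of genes. In 2032 genes (13.5%) the 6 and 6 values did not overlap, and in 942 (6.27%) the change was called and at least 2-fold. Of 13056 protein-coding genes 1538 rose and 1064 fell, and of 1327 long noncoding genes 62 rose and 87 fell. Immunoglobulin segments moved 1 way, with 51 of 155 higher, each by 2-fold or more, and none lower. The higher segments numbered 14 without L-gp130 replicate 6, 24 without L-gp130 replicate 2 and 32 and 31 without control replicates 3 and 6. The plasma cell markers given above moved with them. B cell markers went the other way, with a median log2 fold change of -1.08 over 8 markers. The sums of these B cell markers were 242 to 605 CPM in L-gp130 libraries against 261 to 917 CPM in controls, with overlap. What part either cell type has in these calls was not tested. T cell receptor segments hardly moved, with 1 higher and 2 lower of 116. In bulk RNA, fewer cells of a type and less RNA per cell cannot be told apart, and this applies to each value below.

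The 79 gene lists, in 16 themes, show where the calls fell. Against 11.1% of all genes, called higher were 51 of 54 mitosis and spindle genes, 30 of 39 replication fork genes, 12 of 22 heat shock chaperones and 14 of 30 genes for protein folding in the endoplasmic reticulum (ER). Against 7.75% of all genes, called lower were 12 of 17 TGF-beta pathway genes and 6 of 18 KLF, FOXO, TCF and LEF factors. The cytosolic ribosomal proteins (83 tested), ribosome biogenesis factors (62) and snoRNA host genes (14) stayed close to a median log2 fold change of 0.

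**Figure D1:**
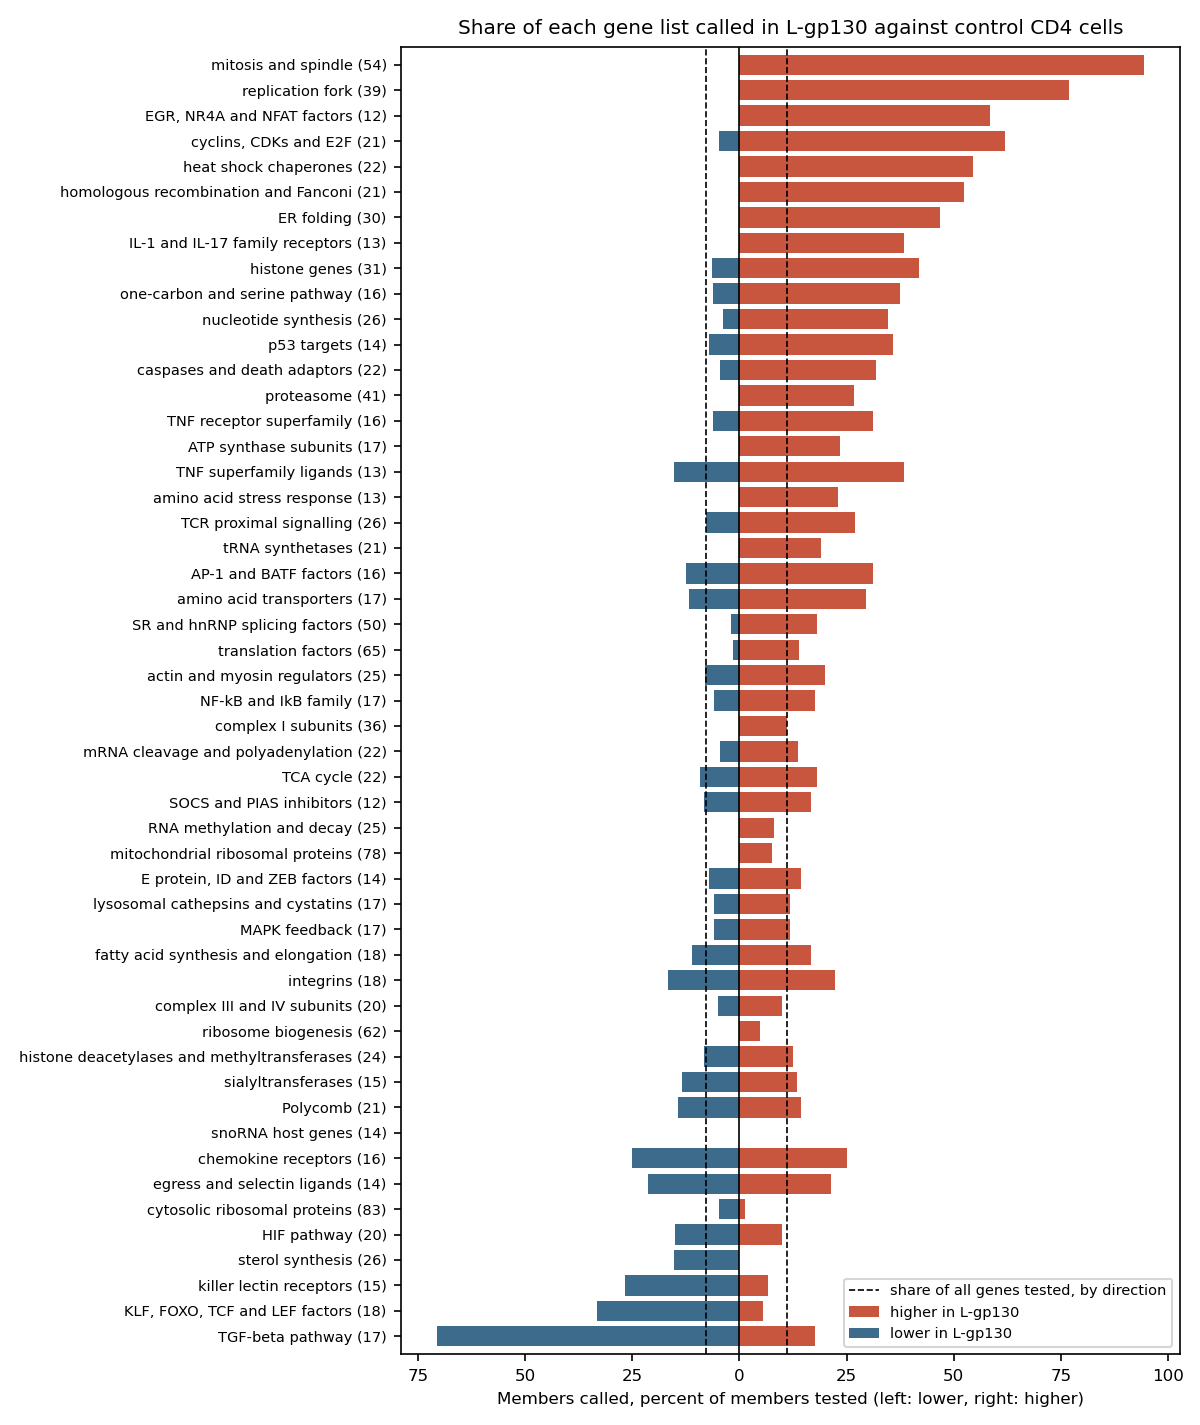
Share of the tested members of each gene list called higher (bars to the right) or lower (bars to the left) in L-gp130 CD4 cells, in percent. Dashed lines mark the share of all tested genes called in that direction, 11.1% and 7.75%. Among lists of over 10 genes, mitosis and spindle, replication fork, and cyclins, CDKs and E2F reach furthest to the right. The TGF-beta pathway reaches furthest to the left.

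The levels of a gene are given below as trimmed-mean-normalised CPM in its lowest, median and highest library of a group, or as lowest to highest for L-gp130 libraries against the same for controls. Fold changes are log2 values of L-gp130 over control with their standard error (SE), and adjusted p-values are those of edgeR's quasi-likelihood test over all 15016 genes. Gene coordinates are those of GENCODE vM21 on GRCm38. Control replicate 1 is the only control labelled male, and L-gp130 replicates 2 and 6 are the only L-gp130 libraries labelled female. The model holds the labelled sex. Leaving out control replicate 1 or L-gp130 replicate 6 lowered counts of calls over the whole table, and the cause of this was not tested. Without L-gp130 replicate 6, 825 genes were higher and 586 lower, and without control replicate 1 these counts were 967 and 562. Each count of called members of a list below stands against 11.1% of all genes higher and 7.75% lower. For a count of 3 or more called members of a list, the value without a library is given below where it differed by more than 1.5 times. None of the 456 called members of the lists changed direction in any alternative fit, and 152 of them, including all 29 genes described library by library, passed in each. Lack of overlap between groups was a condition for choosing these 29 genes, so it is not a separate result for them.

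Within the gp130 pathway, Socs3, Jak3 and Stat3 rose and Il6ra fell. Of 12 SOCS and PIAS genes 2 rose (16.7%) and 1 fell (8.33%), near the 11.1% and 7.75% of all genes. Of 4 JAK kinases 2 rose, of 7 STAT factors 2 rose, and of 6 phosphatases of the pathway 2 rose. Socs3, the main feedback inhibitor of gp130, had 264, 371 and 432 CPM in L-gp130 libraries against 116, 126 and 140.2 CPM in controls. The highest control library lay below the lowest L-gp130 library (log2 fold change 1.55, SE 0.12, adjusted p = 4.0e-06). Its relative Socs1 was at 66.6 to 118 CPM against 33.5 to 40.6 CPM (log2 1.03, SE 0.13). Jak3, the kinase of the common gamma chain receptors, lies at chr8:71676296-71690575 on the plus strand and had 449, 563 and 613 CPM in L-gp130 libraries against 184, 209 and 222 CPM in controls. All 6 L-gp130 libraries were at more than 2-fold the highest control value (log2 fold change 1.45, SE 0.093, adjusted p = 8.4e-07). Its exons share 404 bases with Insl3 on the same strand, which was at 14.5 CPM on average where Jak3 was at 375 CPM. Jak2 also passed (log2 0.30, SE 0.073), but not without L-gp130 replicate 6. Jak1 and Tyk2, the other kinases bound to gp130 receptors, did not, with fold changes of -0.17 and 0.03. Stat3, the main transcription factor downstream, was at 376 to 421 CPM against 237 to 289 CPM (log2 0.63, SE 0.065), and Stat5a at 96.4 to 126 CPM against 80.1 to 90.6 CPM (log2 0.50, SE 0.078). Ptpn1 and Ptpn11, phosphatases that act on JAK kinases and on gp130 signalling, rose by 0.59 (SE 0.077) and 0.75 (SE 0.095). Pim2, a kinase gene induced by STAT factors, rose by 0.84 (SE 0.12).

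The receptor chains went different ways. Il6ra, the ligand-binding chain for IL-6, had 95.7, 177 and 232 CPM in L-gp130 libraries against 414, 427 and 451 CPM in controls (log2 fold change -1.23, SE 0.17, adjusted p = 0.00046). Every L-gp130 library lay well below every control. Il23r, the specific chain of the IL-23 receptor, moved the opposite way from a low level, with 1.15, 2.03 and 3.09 CPM in L-gp130 libraries against 0.288, 0.343 and 0.642 CPM in controls (log2 fold change 2.47, SE 0.33, adjusted p = 0.00031). Il6st itself had 132, 289.6 and 339 CPM in L-gp130 libraries against 348, 362 and 395 CPM in controls. These values did not overlap, but the difference did not pass the test in the model with sex (log2 fold change -0.32, SE 0.18, adjusted p = 0.25). Lifr, the chain for leukaemia inhibitory factor, fell (log2 -0.87, SE 0.24) with overlapping groups, and not without L-gp130 replicate 2 or 6. Il27ra was at 0.08 and Osmr at -0.13, neither called. Summed, the 9 chains reached 611, 792 and 911 CPM in L-gp130 libraries against 1046, 1109 and 1166 CPM in controls, without overlap, while the 7 STAT genes reached 1831, 1978 and 2393 CPM in L-gp130 libraries against 1651, 1742 and 1808 CPM in controls, also without overlap but in the other direction.

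The promoter of Socs3 is shown because it carries the STAT core motif TTCNNNGAA close to the gene's RefSeq start. The window holds the 250 bases before the RefSeq start (GRCm38.p6, chr11:117969367-117969616, minus strand, written 5′ to 3′ along the gene), and capitals mark the 1 match to the motif, 154 bases before that start. In GENCODE the gene spans chr11:117966079-117970047, so this window lies within it. The RefSeq start lies 180 bases from that of Socs3-201. The motif reads the same on both strands, and of 27025 genes with a RefSeq promoter window of this length, 2197 (8.13%) hold at least 1 match in it.
Socs3 promoter: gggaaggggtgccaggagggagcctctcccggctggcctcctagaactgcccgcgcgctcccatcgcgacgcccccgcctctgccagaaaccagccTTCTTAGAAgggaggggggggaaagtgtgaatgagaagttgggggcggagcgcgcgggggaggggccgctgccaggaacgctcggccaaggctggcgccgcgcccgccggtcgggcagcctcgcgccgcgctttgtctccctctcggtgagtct

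Among transcription factors of T cell activation, several of the AP-1 and EGR families rose. Batf, an AP-1 factor needed for TH17 and follicular helper cells, had 62.4, 75.4 and 79.1 CPM in L-gp130 libraries against 22.6, 24.7 and 26.6 CPM in controls (log2 fold change 1.62, SE 0.077, adjusted p = 7.3e-08). Bcl3, an atypical IκB protein that binds NF-κB subunits in the nucleus, had 119, 134 and 164 CPM in L-gp130 libraries against 32.3, 38.3 and 42.6 CPM in controls (log2 fold change 1.78, SE 0.096, adjusted p = 1.9e-07). In both genes the lowest L-gp130 library exceeded the highest control by more than 2-fold. Of 16 AP-1 and BATF factors 5 rose and 2 fell (median log2 0.35). Junb was at 201 to 274 CPM against 115 to 133 CPM (log2 0.98, SE 0.085) and Fosl2 rose by 0.80 (SE 0.14). Of 12 EGR, NR4A and NFAT factors 7 rose and none fell (median 0.41). Egr2, induced by T cell receptor signalling, was at 46.3 to 58.4 CPM against 18.3 to 20.9 CPM (log2 1.43, SE 0.077) and Nfatc1 at 253 to 349.5 CPM against 201 to 245 CPM (log2 0.57, SE 0.093). Tox2, a factor expressed in follicular helper and chronically stimulated T cells, was at 38.5 to 84.5 CPM against 10.4 to 19.6 CPM (log2 2.59, SE 0.21). Of 17 NF-κB and IκB genes 3 rose and 1 fell, Bcl3 and Nfkbid among the former, and the list's median was 0.11. Of 17 MAPK feedback genes 2 rose (11.8%) and 1 fell (5.88%), near the 11.1% and 7.75% of all genes. The risen genes were Dusp14, by 1.68 (SE 0.25), and Spry1, by 1.38 (SE 0.17).

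Several factors of T cell quiescence fell, while Bcl6 rose. Klf2, which keeps T cells quiescent and drives the genes for lymph node entry and exit, had 277, 351 and 387 CPM in L-gp130 libraries against 519, 548 and 622 CPM in controls (log2 fold change -0.76, SE 0.088, adjusted p = 0.00011). Its relatives Klf3, at 184 to 295 CPM against 332 to 407 CPM, and Klf6, at 95.2 to 119 CPM against 144 to 166 CPM, fell with fold changes of -0.56 (SE 0.091) and -0.53 (SE 0.08). Of the 18 KLF, FOXO, TCF and LEF factors 6 fell and 1 rose (median -0.16), and 3 fell without control replicate 1. Foxo1, which sustains Il7r and Klf2 expression, was at 163 to 297 CPM against 334 to 415 CPM (log2 -0.49, SE 0.14), a call lost without L-gp130 replicate 6, control replicate 1 or control replicate 2. Bcl6, the factor that defines follicular helper cells, had 51.9, 79.5 and 85.2 CPM in L-gp130 libraries against 35.1, 37.7 and 42.7 CPM in controls, again without overlap (log2 fold change 0.93, SE 0.12, adjusted p = 0.00032). Of 8 GIMAP GTPases, which support lymphocyte survival, only Gimap7 was called (log2 0.75, SE 0.14).

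Among cytokine receptors, both IL-1 receptors rose from low levels. Il1r1, the signalling receptor for IL-1, lies at chr1:40225080-40317257 on the plus strand and had 16.1, 33.9 and 46.98 CPM in L-gp130 libraries against 2.13, 4.29 and 5.66 CPM in controls (log2 fold change 3.49, SE 0.27, adjusted p = 5.4e-06). Its neighbour Il1r2, a decoy that binds IL-1 without signalling, lies at chr1:40074079-40125231 on the same strand and had 7.05, 12.4 and 17.5 CPM in L-gp130 libraries against 1.41, 1.73 and 1.95 CPM in controls (log2 fold change 2.93, SE 0.23, adjusted p = 5.0e-06). In neither did the groups overlap, and Il1r2 started from a level under 2 CPM. Of 13 IL-1 and IL-17 family receptor genes 5 rose and none fell, and 3 rose without L-gp130 replicate 2 or without control replicate 1. Il17re, the receptor chain for IL-17C, was among them (log2 2.52, SE 0.38). Of 8 common gamma chain receptor genes, Il9r rose (26.2 to 42.4 CPM against 13.8 to 17.9 CPM, log2 1.08, SE 0.13), and 2 fell. Il7r, the survival receptor of resting T cells, was at 137 to 350.3 CPM against 423 to 639 CPM (log2 -1.23, SE 0.23), and this call was lost without control replicate 1.

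TGF-beta signalling runs from the type II receptor Tgfbr2 through the type I receptor Tgfbr1 to Smad2, Smad3 and Smad4, with Smad7, Ski, Skil and the Smurf ubiquitin ligases as inhibitors. In CD4 T cells it is needed for regulatory T cells and contributes to TH17 differentiation together with IL-6. Of 17 genes of the pathway tested, 12 fell and 3 rose, with a median log2 fold change of -0.42. The accessory receptor Tgfbr3 had 23.4, 39.98 and 56.7 CPM in L-gp130 libraries against 102, 108 and 114 CPM in controls (log2 fold change -1.33, SE 0.17, adjusted p = 0.00029). Tgfbr1 had 45.8, 55.9 and 59.04 CPM in L-gp130 libraries against 66.99, 69.2 and 77.8 CPM in controls (log2 fold change -0.31, SE 0.071, adjusted p = 0.0097) and Tgfbr2 had 265, 378 and 462 CPM in L-gp130 libraries against 477, 489 and 548 CPM in controls (log2 fold change -0.38, SE 0.12, adjusted p = 0.043). The call of Tgfbr2 was lost without L-gp130 replicate 3 or 6 or control replicate 1, 2 or 5, and those of Tgfbr1 and Smad4 without control replicate 1. In Tgfbr1, Tgfbr2 and Tgfbr3 the highest L-gp130 library lay below the lowest control. Among the SMAD proteins, Smad4 had 69.8, 99.6 and 113 CPM in L-gp130 libraries against 131, 143 and 149 CPM in controls (log2 fold change -0.47, SE 0.11, adjusted p = 0.0086), Smad2 was not called (-0.13) and Smad3 rose slightly (log2 0.22, SE 0.058).

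The pathway's inhibitors fell as well as its receptors. Smad7 had 44.96, 72.6 and 95.1 CPM in L-gp130 libraries against 119.5, 146 and 163 CPM in controls (log2 fold change -0.97, SE 0.18, adjusted p = 0.0029), Skil had 47.2, 71.8 and 78.4 CPM in L-gp130 libraries against 104, 107 and 116 CPM in controls (log2 fold change -0.61, SE 0.11, adjusted p = 0.003) and Smurf1 had 46, 60.9 and 65.4 CPM in L-gp130 libraries against 78.6, 82.5 and 84.8 CPM in controls (log2 fold change -0.49, SE 0.095, adjusted p = 0.0036). These groups did not overlap. Among the ligands, Tgfb1 did not pass (log2 -0.19, SE 0.073) and Tgfb3 rose, with 10.1, 13.9 and 16.7 CPM in L-gp130 libraries against 3.84, 6.26 and 7.31 CPM in controls (log2 fold change 1.26, SE 0.20, adjusted p = 0.00092). The activin and BMP receptors Acvr2a, Acvr1b and Bmpr2 fell by 0.46 to 0.56, and Bmpr1a rose (log2 0.67, SE 0.20). Calls among these were lost without L-gp130 replicate 2 (Acvr2a and Bmpr1a), 3 (Bmpr1a) or 6 (all but Bmpr2), or without control replicate 1 (all but Acvr2a) or 2 (Acvr1b and Bmpr1a). Exons of Acvr2a share 446 bases with Orc4 on the opposite strand. The summed level of the 17 genes was 1213, 1508 and 1745 CPM in L-gp130 libraries against 1975, 2024 and 2148 CPM in controls, without overlap. The lower calls numbered 13 when L-gp130 replicate 1 and control replicate 5 were both left out, 12 after thinning, 7 without L-gp130 replicate 6 and 5 without control replicate 1, when the median was -0.32. Tgfbr3, Smad7, Skil, Smurf1 and Tgfb3 passed under each of these settings. The 3 higher calls dropped to 1 without L-gp130 replicate 2 or 6 or without control replicate 1, 3, 4 or 6.

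**Figure D2:**
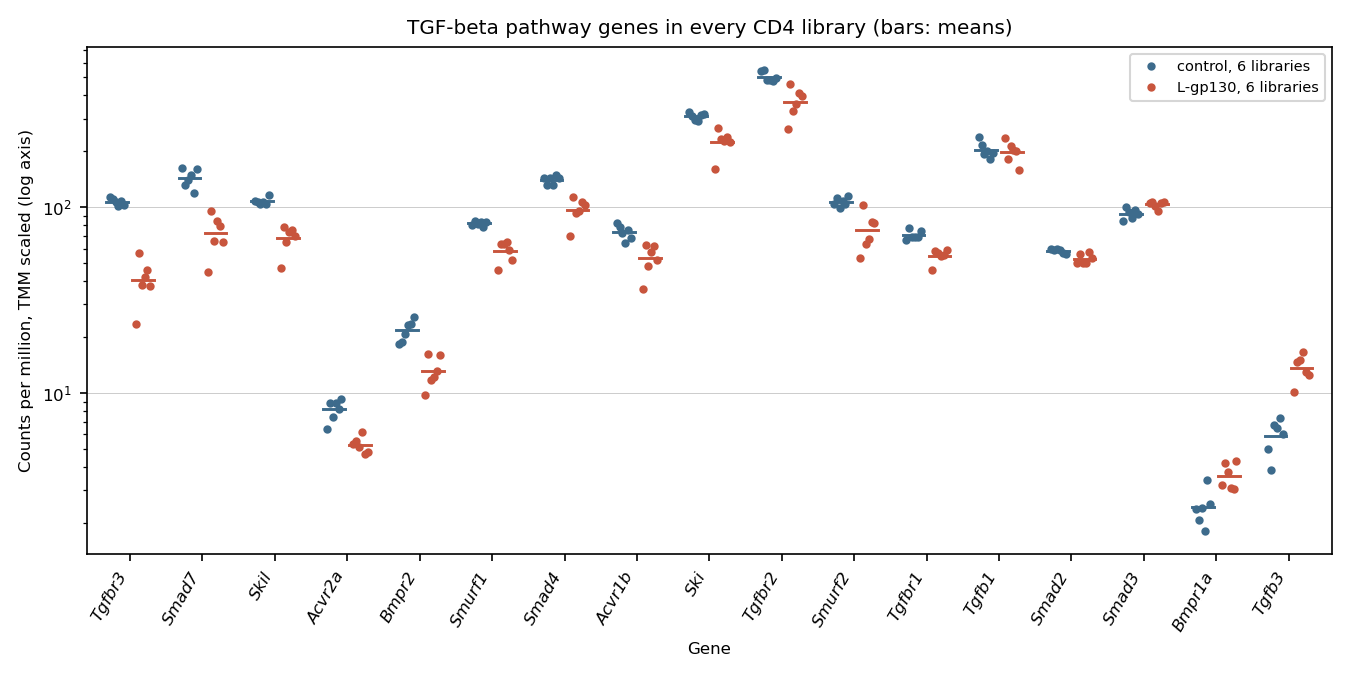
Level of each of the 17 TGF-beta pathway genes in every CD4 library, in CPM on a log axis, with each point a library and each bar the mean of a group of 6. From Tgfbr3 at the left to Tgfb3 at the right the genes are ordered by fold change, and for Tgfbr3, Smad7, Skil, Smurf1 and Tgfbr1 all L-gp130 points sit below all control points.

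Several costimulatory genes of the TNF families rose on both the receptor and the ligand side. Fas, the death receptor, had 29.3, 33.9 and 37.9 CPM in L-gp130 libraries against 17.5, 19.01 and 19.95 CPM in controls (log2 fold change 0.90, SE 0.087, adjusted p = 2.7e-05). Tnfsf14, the ligand LIGHT, had 35.7, 43.03 and 45.1 CPM in L-gp130 libraries against 11.9, 16.9 and 19.4 CPM in controls (log2 fold change 1.51, SE 0.10, adjusted p = 1.2e-06), and the gene of its receptor, Tnfrsf14, rose by 0.69 (SE 0.13). For these 3 genes the groups did not overlap. Of 16 receptors 5 rose and 1 fell, among the former Tnfrsf4, which encodes OX40, at 49.3 to 71.4 CPM against 21.2 to 33.6 CPM (log2 1.09, SE 0.15). Of 13 ligands 5 rose and 2 fell, with 3 rising without L-gp130 replicate 6 or without control replicate 1 or 4. Tnfsf8 was at 74.1 to 180.3 CPM against 52.5 to 71.2 CPM (log2 1.25, SE 0.18). Of 26 genes of proximal T cell receptor signalling 7 rose and 2 fell. The adaptor Lcp2 was at 389.8 to 421 CPM against 241 to 291 CPM (log2 0.59, SE 0.062) and the kinase Zap70 at 307 to 364 CPM against 214 to 269.7 CPM (log2 0.48, SE 0.077). Of 11 SLAM family genes 3 rose, including Slamf6 and its adaptor Sh2d1a, which follicular helper cells need. Of 15 killer lectin receptors 4 fell and 1 rose, and single libraries moved the lower count between 1, without L-gp130 replicate 6, and 7, without L-gp130 replicate 1. It was 2 without L-gp130 replicate 2 or control replicates 1, 2 or 4.

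Adhesion and homing genes moved in both directions. Itgb3, the integrin beta 3 chain, had 53.4, 62.3 and 68.1 CPM in L-gp130 libraries against 191, 207 and 221 CPM in controls (log2 fold change -1.75, SE 0.076, adjusted p = 4.0e-08). Itgae, the CD103 chain that binds E-cadherin on epithelium, had 34.01, 48.6 and 65.1 CPM in L-gp130 libraries against 6.66, 8.47 and 9.71 CPM in controls (log2 fold change 2.51, SE 0.19, adjusted p = 5.3e-06). For neither gene did the groups overlap. Itgb8, which activates latent TGF-beta, rose by 1.30 (SE 0.22), and Itgal, a chain of LFA-1, was at 851 to 1061 CPM against 585 to 729 CPM (log2 0.63, SE 0.081). Of 18 integrin genes 4 rose and 3 fell, with 1 falling without control replicate 1. Of 16 chemokine receptors 4 rose and 4 fell, and 2 fell without control replicate 1. Cxcr5, which leads cells into B cell follicles, was at 65.1 to 162 CPM against 47.9 to 61.5 CPM (log2 1.25, SE 0.18), Ccr6, the receptor of TH17 cells, rose by 0.96 (SE 0.17), and Cxcr3 was at 84.2 to 135 CPM against 44.6 to 69.3 CPM (log2 0.86, SE 0.15). Ccr9 and Ccr10 fell, with fold changes of -1.19 (SE 0.17) and -1.70 (SE 0.30). Overlap of Ccr10 with genes on the opposite strand was not examined, and unstranded reads could not tell such genes apart. Ccr9 also marks plasmacytoid dendritic cells, and their marker Siglech fell as well (log2 -2.17, SE 0.38), with the 11 dendritic cell markers at 149 to 319 CPM against 236 to 347 CPM, whose part in the Ccr9 result was not tested. Among 15 sialyltransferases, St8sia6 fell (17.9 to 63.4 CPM against 123 to 153 CPM, log2 -1.37, SE 0.23) and St6galnac1 rose (log2 1.60, SE 0.30). Of the 15, 2 rose (13.3%) and 2 fell (13.3%), against 11.1% and 7.75% of all genes. Among actin and myosin regulators, Myo6, a motor that moves towards the minus end of actin filaments, fell (5.497 to 10.8 CPM against 28.1 to 73.1 CPM, log2 -2.61, SE 0.28), while 5 of 25 rose, or 2 without L-gp130 replicate 6 and 3 without control replicate 1.

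Several caspase genes rose, and the BCL2 family moved in both directions. Casp4, which senses intracellular lipopolysaccharide, had 23.7, 25.2 and 45.3 CPM in L-gp130 libraries against 6.51, 7.16 and 9.73 CPM in controls (log2 fold change 1.84, SE 0.20, adjusted p = 6.8e-05). Its highest value was that of L-gp130 replicate 1, while the next library had 29.6 CPM, and all 6 exceeded the controls. Casp1, the inflammasome caspase, was at 30.8 to 72.4 CPM against 13.4 to 18.6 CPM (log2 1.15, SE 0.23). Of 22 caspases and death adaptors 7 rose and 1 fell, and 4 rose without L-gp130 replicate 6 or without control replicate 1. Of the BCL2 family, the survival gene Bcl2 was at 66.4 to 169.6 CPM against 187 to 243 CPM (log2 -0.94, SE 0.20), a call lost without control replicate 1, and its relative Bcl2a1b rose (log2 0.89, SE 0.18), although reads of the near-identical Bcl2a1 copies may be split between them. Bik rose by 1.17 (SE 0.26) and Bmf fell by 0.94 (SE 0.20), both genes that promote death. Of 10 death-promoting members 4 rose and 1 fell, with 2 rising without L-gp130 replicate 6 or control replicate 6 and 1 without control replicate 1.

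Many genes of cell division rose. Mcm4, part of the replicative helicase, had 123, 154 and 181 CPM in L-gp130 libraries against 84.95, 96.7 and 108 CPM in controls (log2 fold change 0.73, SE 0.097, adjusted p = 0.00029), without overlap. The other helicase genes Mcm2, Mcm3, Mcm5 and Mcm6 rose by 0.81, 0.85, 1.15 and 0.90, and Pole, the catalytic chain of the leading strand polymerase, was at 29.4 to 51.2 CPM against 10.6 to 21.1 CPM (log2 1.32, SE 0.23). Of 39 replication fork genes 30 rose and none fell (median 0.81), and their sum was 2046, 2691 and 3202 CPM in L-gp130 libraries against 1586, 1723 and 1904 CPM in controls, without overlap. Of 54 mitosis genes 51 rose (median 1.52), but here the sums overlapped, with 1995, 3160 and 4612 CPM in L-gp130 libraries against 1294, 1889 and 2210 CPM in controls. Top2a, which untangles chromosomes, was at 160.3 to 439 CPM against 61.4 to 144 CPM (log2 1.65, SE 0.29). Of 21 genes of homologous recombination and the Fanconi pathway 11 rose, and of 21 cyclins, CDKs and E2F factors 13 rose. The 1 lower gene there was Ccnd2, the cyclin D of resting and early activated lymphocytes, with 274, 318 and 369 CPM in L-gp130 libraries against 497, 505 and 565 CPM in controls (log2 fold change -0.65, SE 0.091, adjusted p = 0.00046). Of 34 kinesin genes, the motors of the spindle and of transport, 15 rose, or 2 without L-gp130 replicate 6 and 4 without control replicate 1. Of 16 tubulins 6 rose, or 2 without L-gp130 replicate 6.

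The number of division genes called depended on 2 libraries. Without L-gp130 replicate 6, 10 replication fork, 10 mitosis, 4 recombination and 1 cyclin, CDK or E2F gene rose, and the medians of the first pair of lists were 0.62 and 1.29. Without control replicate 1 these counts were 15, 19, 6 and 3. L-gp130 replicate 6 had the highest sum of the L-gp130 group for mitosis genes, 4612 CPM, and for erythroid markers, 38300 CPM, and L-gp130 replicate 4 the lowest for both. Dividing erythroblasts of the spleen also express mitosis genes. None of the 11 erythroid markers was called, their median log2 fold change was 0.89, and their part in the division genes was not tested.

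**Figure D3:**
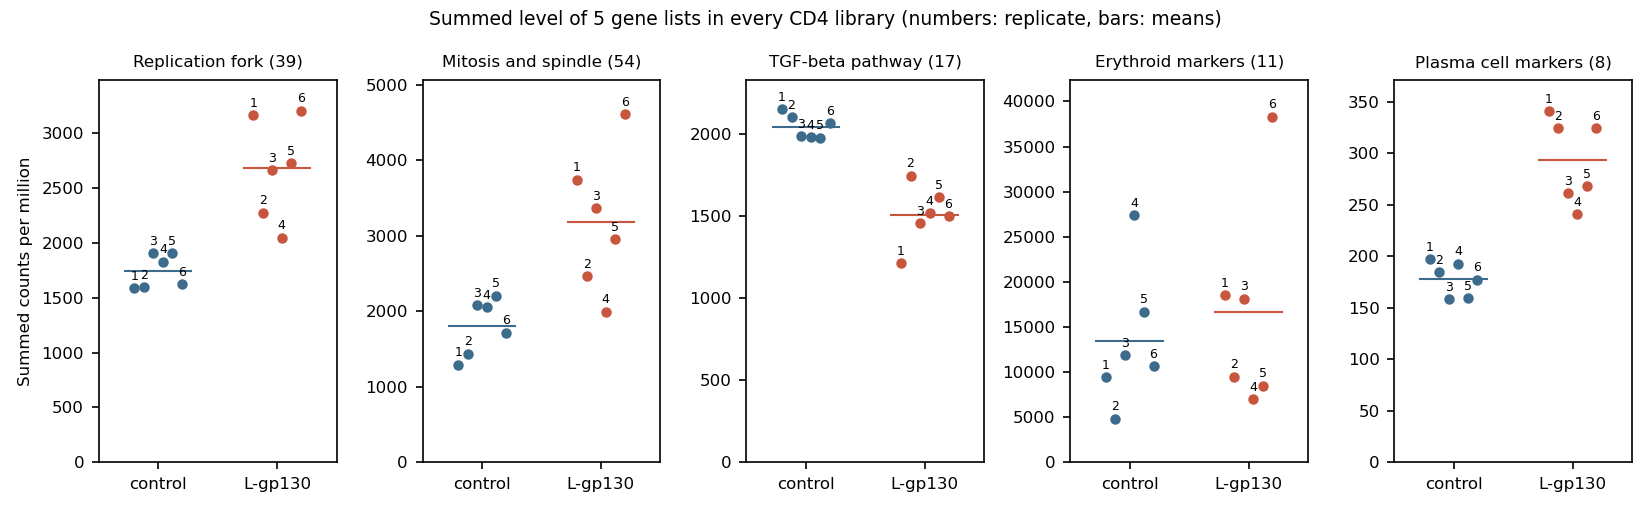
Summed CPM of 5 gene lists in every CD4 library, with numbers for the replicate and bars for group means, each panel on its own axis from 0. Replication fork genes and plasma cell markers are higher, and TGF-beta pathway genes lower, in all 6 L-gp130 libraries, while mitosis genes and erythroid markers overlap between groups.

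Of the ribosomal proteins, Mrps6 and Mrpl52 of the mitochondrial ribosome rose. Of 83 cytosolic ribosomal protein genes 1 rose and 4 fell, or 1 without L-gp130 replicate 6 (median -0.08). Of 78 mitochondrial ribosomal protein genes 6 rose (7.69%, under the 11.1% of all genes) and none fell (median 0.11). That count was 15 without L-gp130 replicate 4 and 3 without L-gp130 replicate 6 or control replicate 1, 3, 5 or 6. Mrps6, of the small mitochondrial subunit, had 23.8, 31.6 and 34.98 CPM in L-gp130 libraries against 15.01, 16.03 and 17.3 CPM in controls (log2 fold change 0.95, SE 0.12, adjusted p = 0.00018), although 159 exon bases are shared with Slc5a3 on the same strand, at a similar level. Mrpl52, of the large subunit, had 59.4, 63.4 and 73.2 CPM in L-gp130 libraries against 39.7, 40.7 and 45.9 CPM in controls (log2 fold change 0.61, SE 0.076, adjusted p = 0.00019). For both genes the lowest L-gp130 value was above the highest control value. Of 65 translation factors 9 rose and 1 fell, against 11.1% and 7.75% of all genes. The 9 became 1 without L-gp130 replicate 6 and 4, 5, 5 and 3 without control replicates 1, 3, 4 and 6. Of 62 ribosome biogenesis factors 3 rose (4.84%, also under the share of all genes). That count was 5 without L-gp130 replicate 1, none without L-gp130 replicate 6 and 1 without control replicate 1, 3, 4 or 6. Of 21 tRNA synthetases 4 rose, with 7 without L-gp130 replicate 1, 2 or 4 and 1 without L-gp130 replicate 6.

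Among genes of energy metabolism, 2 genes of oxygen sensing rose. Hif1a, the oxygen-regulated factor that also supports TH17 cells, had 213, 250.1 and 285 CPM in L-gp130 libraries against 141, 154 and 161 CPM in controls (log2 fold change 0.77, SE 0.074, adjusted p = 2.7e-05). Egln3, a prolyl hydroxylase that marks HIF proteins for degradation and is itself a HIF target, had 20, 25.2 and 27.5 CPM in L-gp130 libraries against 6.14, 6.95 and 8.85 CPM in controls (log2 fold change 1.85, SE 0.13, adjusted p = 1.6e-06). The 2 genes were higher in all L-gp130 libraries, but of the 20 genes of the HIF pathway they were the only 2 to rise. In that list 3 fell, or 1 without L-gp130 replicate 6, among them Ndrg1 (log2 -0.57, SE 0.10). Of 20 subunits of complexes III and IV 2 rose and 1 fell. Of 36 complex I subunits 4 rose (11.1%), the share found among all genes. That count was 8 without L-gp130 replicate 4, 2 without control replicate 2, 1 without L-gp130 replicate 2 or control replicate 3 or 4, and none without L-gp130 replicate 6 or control replicate 1 or 6. Of 17 ATP synthase subunits 4 rose, with 9 without L-gp130 replicate 4, 2 without control replicate 2 or 5, 1 without L-gp130 replicate 5 or control replicate 3, 4 or 6, and none without L-gp130 replicate 6 or control replicate 1. In the citric acid cycle Idh3a rose (log2 0.51, SE 0.093) and Idh2 fell (log2 -0.54, SE 0.089), 2 isocitrate dehydrogenases that differ in the cofactor they use. No gene of the pentose phosphate pathway was called, of 7.

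Several one-carbon and nucleotide enzymes rose, and fatty acid enzymes moved both ways. Mthfd2, the mitochondrial folate enzyme of activated T cells, had 81.02, 96.1 and 110.3 CPM in L-gp130 libraries against 46.7, 52.4 and 54.2 CPM in controls (log2 fold change 0.94, SE 0.087, adjusted p = 1.8e-05). Elovl6, which elongates palmitate to stearate, had 30.4, 53.6 and 65.7 CPM in L-gp130 libraries against 15.1, 18.9 and 22.1 CPM in controls (log2 fold change 1.60, SE 0.14, adjusted p = 1.7e-05), whereas its relative Elovl7 fell (log2 -2.51, SE 0.34). Neither Mthfd2 nor Elovl6 overlapped between groups. Of 16 one-carbon and serine pathway genes 6 rose and 1 fell (median 0.35), including Psat1, Shmt2 and Ahcy by 0.86, 0.46 and 0.56, and their sum was 856, 1000 and 1040 CPM in L-gp130 libraries against 744, 767 and 798 CPM in controls, without overlap. Of 26 nucleotide synthesis genes 9 rose and 1 fell, with 3 rising without L-gp130 replicate 6 and 4 without control replicate 1. The neutral amino acid transporter Slc1a5 was at 278 to 330.2 CPM against 195 to 242 CPM (log2 0.48, SE 0.077), and Chac1, a glutathione-degrading gene of the amino acid stress response, rose by 2.57 (SE 0.46). Of 26 sterol synthesis genes 4 fell and none rose (median -0.10). These lower calls numbered 8 without control replicate 4, 1 without L-gp130 replicate 6 and 0 without control replicate 1.

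Many chaperones of the cytosol and the ER and some proteasome genes rose. Of 22 heat shock chaperones 12 rose (median 0.29), 7 without L-gp130 replicate 2 and 6 without L-gp130 replicate 6. Hspa8, the constitutive HSP70, was at 1639 to 2917 CPM against 1081 to 1565 CPM (log2 0.91, SE 0.17), and Hsp90aa1 at 347 to 642 CPM against 277 to 310.4 CPM (log2 0.86, SE 0.13). Of 30 ER folding genes 14 rose and none fell (median 0.25), and their sum was 4473, 5115 and 5890 CPM in L-gp130 libraries against 3799, 3937 and 4298 CPM in controls, without overlap. Sdf2l1, Creld2 and Pdia6, all induced in the unfolded protein response, rose by 0.99, 0.73 and 0.58. The ER count was 3 without L-gp130 replicate 6, 9 without control replicate 1 and 8 without control replicate 6. Some markers of plasma cells, which carry a large ER, moved with these genes: 4 of the 7 tested rose, or 2 without L-gp130 replicate 6 or control replicate 1. They were Jchain by 1.77 (SE 0.27), Derl3 by 1.355 (SE 0.32), Xbp1 by 0.44 (SE 0.11) and Irf4 by 0.29 (SE 0.074). Sdc1 (0.32), Mzb1 (-0.20) and Prdm1 (0.02) were not called. The sums of the plasma cell markers did not overlap. What part plasma cells have in the ER genes was not tested. Of 41 proteasome genes 11 rose (median 0.22), a count between 1, without L-gp130 replicate 6, and 17, without L-gp130 replicate 4. It was 7 without L-gp130 replicate 2 or 5, and 3, 6, 5 and 4 without control replicates 1, 3, 4 and 6.

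Of 17 lysosomal proteases and their inhibitors 2 rose and 1 fell, against 11.1% and 7.75% of all genes. Cst7, a cystatin that restrains cathepsins in cytotoxic and activated lymphocytes, lies at chr2:150570415-150578944 on the plus strand and had 75.98, 83.3 and 91.1 CPM in L-gp130 libraries against 14.1, 16.7 and 19.7 CPM in controls (log2 fold change 2.39, SE 0.11, adjusted p = 4.0e-08). The lowest L-gp130 library was over 3-fold above the highest control. Ctsa, a lysosomal carboxypeptidase at chr2:164832873-164841032 on the plus strand, had 265, 295 and 319 CPM in L-gp130 libraries against 170.3, 178 and 190.1 CPM in controls (log2 fold change 0.63, SE 0.063, adjusted p = 3.4e-05). It shares 495 exon bases with Pltp on the opposite strand, which these unstranded reads cannot tell apart, but Pltp was at 17.9 CPM where Ctsa was at 235 CPM. Ctsl fell by 0.76 (SE 0.15).

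Among chromatin genes, Uhrf1 and 13 histone genes rose. Uhrf1, which brings the maintenance DNA methyltransferase to replicating DNA, had 67.6, 120.3 and 163 CPM in L-gp130 libraries against 26.98, 45.9 and 57.1 CPM in controls (log2 fold change 1.62, SE 0.29, adjusted p = 0.0033). Hist1h2ag, a replication-dependent histone gene that belongs to a family of near-identical copies, had 1.65, 2.38 and 3.47 CPM in L-gp130 libraries against 0.548, 0.775 and 1.01 CPM in controls (log2 fold change 1.73, SE 0.28, adjusted p = 0.0012). Since most histone mRNAs lack a poly(A) tail and copies share reads, this low value is uncertain as a measure of 1 gene. Of 31 histone genes 13 rose and 2 fell (median 0.58), with 2 rising without L-gp130 replicate 6 and 6 without control replicate 1. Of 9 DNA methylation enzymes 2 rose and 3 fell. Tet3, which oxidises methylcytosine, was at 120.4 to 234 CPM against 298 to 348 CPM (log2 -0.62, SE 0.12), and without control replicate 1 this call was lost and 1 of the 9 fell. Of 21 Polycomb genes 3 (14.3%) rose and 3 (14.3%) fell, against 11.1% and 7.75% of all genes. Without L-gp130 replicate 6 these counts were 1 and 0, and without control replicate 1 both were 0.

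Among RNA processing genes, Zc3h12d and Hnrnpll rose. Zc3h12d, a ribonuclease of the Regnase family, had 100.2, 134 and 141 CPM in L-gp130 libraries against 71.7, 73.6 and 77.6 CPM in controls (log2 fold change 0.83, SE 0.083, adjusted p = 3.4e-05). Hnrnpll, the splicing factor known to switch CD45 isoforms in activated lymphocytes, had 81.4, 89.2 and 96.8 CPM in L-gp130 libraries against 58.4, 67.3 and 72.6 CPM in controls (log2 fold change 0.47, SE 0.082, adjusted p = 0.0019). The lowest L-gp130 library stood above the highest control in each. Of 50 SR and hnRNP splicing factors 9 rose and 1 fell, against 11.1% and 7.75% of all genes (median 0.10), with 15 rising without L-gp130 replicate 1 and 4 without L-gp130 replicate 6 or control replicate 1. Of 22 cleavage and polyadenylation genes 3 rose and 1 fell, with none rising without L-gp130 replicate 6 and 1 without L-gp130 replicate 2 or control replicate 1, 3, 4 or 6.

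Of 8 microRNA host genes 2 rose and 1 fell, and of 10 long noncoding RNAs 3 rose and 1 fell, with 1 rising without L-gp130 replicate 6 or control replicate 1. Pvt1, the noncoding neighbour of Myc, had 9.59, 11.3 and 13.99 CPM in L-gp130 libraries against 5.799, 6.56 and 6.901 CPM in controls (log2 fold change 0.87, SE 0.13, adjusted p = 0.00074). Vmp1, an autophagy gene at chr11:86583865-86683836 on the minus strand, is listed as the host of miR-21a and had 165, 189.7 and 227 CPM in L-gp130 libraries against 48.9, 53.9 and 69.2 CPM in controls (log2 fold change 1.70, SE 0.12, adjusted p = 1.6e-06). Its L-gp130 libraries all exceeded 2-fold the highest control. The gene's reads include those of Vmp1-206, a transcript annotated without a coding sequence that held most of its TPM in both groups, as given below. The 92 bases of the Mir21a hairpin (chr11:86584067-86584158) lie within the last exon of Vmp1-201, in its 3′ untranslated part. Libraries of polyadenylated RNA do not measure the mature microRNA, so only its host's level is known here. The mature sequences are shown because miR-21a is the microRNA that this host carries, with the seed (bases 2 to 8) in capitals, from RefSeq (GRCm38.p6).
mmu-miR-21a-5p: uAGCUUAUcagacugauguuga
mmu-miR-21a-3p: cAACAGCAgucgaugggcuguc

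**Figure D4:**
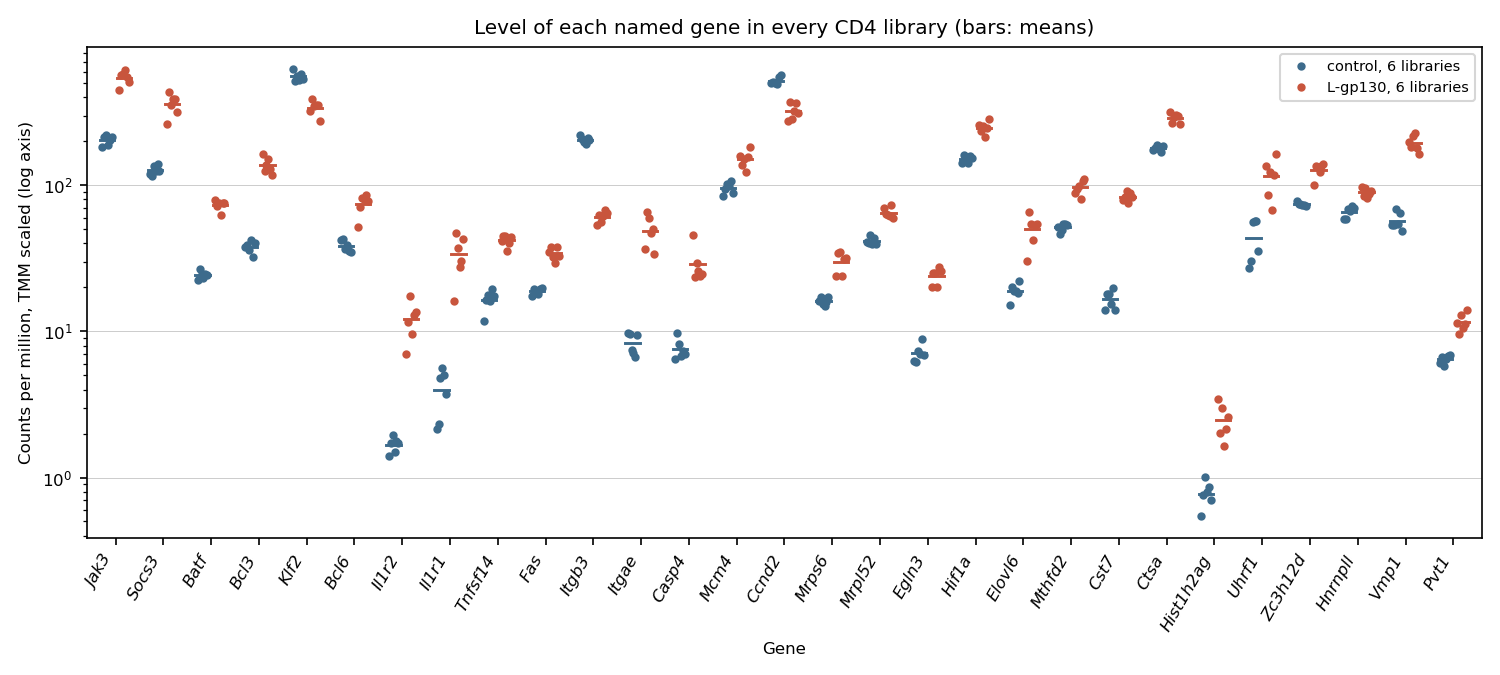
Level of the 29 genes described library by library, in CPM on a log axis, with each point a library and each bar the mean of a group of 6. Klf2, Itgb3 and Ccnd2 lie lower in the L-gp130 group and the other 26 higher. Lack of overlap between the groups was a condition for choosing the 29.

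At the level of single transcripts, 1226 of 39131 (3.13%) were higher and 739 (1.89%) lower in L-gp130 cells. The 1226 belong to 1067 genes, of which 935 were called higher as a gene, 130 were not called and 1 was called lower. The 739 belong to 654 genes, of which 520 were called lower, 133 were not called and 1 was called higher. Annotated protein-coding transcripts made up 1048 of the higher and 612 of the lower ones. Retained-intron transcripts numbered 8652 among those tested, of which 63 were higher and 50 lower. Counts of transcripts moved more with single libraries than those of genes. The higher ones numbered 461 without L-gp130 replicate 6 and 514 without control replicate 1. The lower ones numbered 281 and 243 in these fits, 479 without L-gp130 replicate 2 and 480 without control replicate 6.

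In 6 genes, transcripts were called in both directions at once. Trak1, an adaptor that carries mitochondria along microtubules, had Trak1-209 higher by 1.10 (SE 0.099) and Trak1-213 lower, at -1.40 (SE 0.22) on the log2 scale, together with lower Trak1-201 and Trak1-208. Its gene-level fold change was -0.15 (SE 0.076), not called. Iws1, an elongation factor that recruits histone methylation to genes, had Iws1-206 at 0.70 and Iws1-201 at -0.48. The others were Gse1, Rbm4, Rps26 and U2surp.

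Transcript usage, the share held by 1 transcript of its gene's summed TPM, the length-normalised transcript level, was tested in 6945 genes with 18735 transcripts. The test that combines transcript p-values by Simes' method in edgeR called 7 genes (0.101%): Acp5, Limk1, Lmf2, Rbm4, Rps27a, Rps6ka1 and Sept9. By edgeR's F test over all transcripts of a gene 72 genes (1.04%) were called, by limma 99 (1.43%) and by both 61 (0.878%). Of these 61 genes 39 were not called at the gene level, 17 were higher and 5 lower. The count of 7 was 0 without L-gp130 replicate 6 or control replicate 3 or 4, 1 without L-gp130 replicate 2 or control replicate 5, 11 without L-gp130 replicate 1, 12 without L-gp130 replicate 4 and 23 without control replicate 1. The count of 72 by the F test was 27 without L-gp130 replicate 6, 32 without L-gp130 replicate 2, 139 without L-gp130 replicate 4, 42 and 39 without control replicates 5 and 6, and 129 without the sex covariate. An unadjusted p under 0.05 was reached by 178 genes. Limk1 and Rps6ka1 met the rule for naming: a called gene with at least 5 CPM, in which a transcript that was itself called shifted by at least 10 percentage points without overlap. Simes' method called neither without L-gp130 replicate 2 or 6 or without control replicate 3, 4 or 5. It also called neither with the replicate number as block.

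Limk1, the kinase that inactivates cofilin and so steadies actin filaments, switched its leading transcript. Limk1-201 held 58.1%, 64.1% and 77.9% in controls and 24.7%, 36.2% and 44.01% in L-gp130 libraries. Limk1-202 held 13.5%, 20.3% and 29.7% in controls and 38.7%, 44.98% and 61.4% in L-gp130 libraries. In neither did the groups overlap, and the mean shares went from 65.6% ± 6.75 to 35.6% ± 7.58 and from 21.1% ± 5.36 to 48.5% ± 10.02 (SD, n = 6; adjusted p = 0.025 by Simes, 0.00036 by the F test and 0.00019 by limma). The gene itself rose, from 34.9 ± 1.6 to 59.7 ± 4.7 CPM (log2 0.73, SE 0.071). In CD8 cells the shares moved the same way, from 30.98% to 19.95% for Limk1-201 and from 48.1% to 60.3% for Limk1-202. The 2 transcripts start 10350 bases apart on the minus strand of chromosome 5 and end within 1 base of each other, so they differ in promoter and first coding exons.

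The 2 start regions are shown because the usage shift lies between them. Each is the 250 bases before the annotated start in RefSeq (GRCm38.p6), at chr5:134688591-134688840 for Limk1-201 and chr5:134678249-134678498 for Limk1-202, written 5′ to 3′ along the gene, with every CG dinucleotide in capitals. The first holds 31 CG dinucleotides at 73.6% G and C, and the second, inside the gene, 2 at 57.2%.
Limk1-201 promoter: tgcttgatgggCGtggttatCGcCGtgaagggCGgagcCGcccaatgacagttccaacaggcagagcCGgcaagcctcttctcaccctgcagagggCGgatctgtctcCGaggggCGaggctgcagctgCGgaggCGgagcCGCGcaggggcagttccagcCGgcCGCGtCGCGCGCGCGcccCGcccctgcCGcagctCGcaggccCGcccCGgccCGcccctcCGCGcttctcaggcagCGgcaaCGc
Limk1-202 promoter: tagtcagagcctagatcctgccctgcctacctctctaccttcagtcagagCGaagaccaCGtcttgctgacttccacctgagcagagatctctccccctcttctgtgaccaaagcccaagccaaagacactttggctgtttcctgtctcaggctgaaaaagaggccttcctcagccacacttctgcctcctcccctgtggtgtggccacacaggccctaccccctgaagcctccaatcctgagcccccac

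The coding sequence changes with the start. Limk1-201 has 152 coding bases that Limk1-202 lacks (GRCm38, spliced from between chr5:134686644 and 134688395), and Limk1-202 has 128 of its own (chr5:134678115-134678242). They are printed because they are where the proteins of the transcripts differ.
Limk1-201 only: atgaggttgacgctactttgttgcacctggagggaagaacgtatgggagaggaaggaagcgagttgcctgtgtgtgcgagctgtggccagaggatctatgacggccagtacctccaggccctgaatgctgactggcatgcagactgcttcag
Limk1-202 only: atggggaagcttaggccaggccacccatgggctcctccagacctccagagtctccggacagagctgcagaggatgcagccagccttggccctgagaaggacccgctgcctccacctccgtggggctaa

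Rps6ka1, which encodes the MAPK-activated kinase RSK1, shifted between starts in the same manner. Rps6ka1-202 held 23.5%, 25.04% and 28.9% in controls and 8.53%, 15.1% and 17.8% in L-gp130 libraries. Rps6ka1-206 held 27.2%, 32.5% and 35.1% in controls and 37.9%, 41.4% and 50.1% in L-gp130 libraries. Mean shares went from 25.6% ± 1.96 to 14.2% ± 3.17 and from 31.8% ± 2.87 to 42.1% ± 4.52 (SD, n = 6; adjusted p = 0.034 by Simes and 0.00089 by the F test in edgeR), without overlap. The gene as a whole did not pass (log2 -0.14, adjusted p = 0.11). In CD8 cells the shares went from 35.4% to 32.2% and from 19.9% to 20.99%, a smaller move in the same direction. The starts lie 13066 bases apart on the minus strand of chromosome 4, and again the upstream window is rich in CG dinucleotides, with 30 against 2 in the inner window. They are shown in the same way as those of Limk1 (chr4:133887798-133888047 and chr4:133874732-133874981).
Rps6ka1-202 promoter: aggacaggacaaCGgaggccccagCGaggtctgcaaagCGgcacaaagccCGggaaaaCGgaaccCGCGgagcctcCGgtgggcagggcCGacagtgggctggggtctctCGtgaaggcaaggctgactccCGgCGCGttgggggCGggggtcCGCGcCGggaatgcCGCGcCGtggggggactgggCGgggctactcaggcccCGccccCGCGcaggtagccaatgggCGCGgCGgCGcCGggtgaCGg
Rps6ka1-206 promoter: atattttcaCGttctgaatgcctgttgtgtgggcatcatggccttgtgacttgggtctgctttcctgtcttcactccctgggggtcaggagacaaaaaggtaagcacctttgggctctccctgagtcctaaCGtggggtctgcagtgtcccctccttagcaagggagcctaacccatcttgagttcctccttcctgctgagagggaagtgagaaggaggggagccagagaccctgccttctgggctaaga

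A further 16 genes were called by both the F test and limma with a transcript that moved by 10 points or more without overlap, at 5 CPM or more; they were chosen after their values were seen. Of the 18 genes together, the 2 leading transcripts differed by more than 1000 bases in the start in 5, by more than 200 bases in the end in 8, in both in 2 and in neither in 3. Trak1-209 held 8.52%, 10.9% and 12.6% in controls and 24.5%, 25.99% and 29.2% in L-gp130 libraries, while Trak1-213 held 17.9%, 21.1% and 23.8% in controls and 4.59%, 9.699% and 10.9% in L-gp130 libraries (adjusted p = 5.1e-10 by the F test). The transcripts start 22 bases apart and end 19034 bases apart. In CD8 cells Trak1-213 also fell in share, from 9.38% to 3.72% without overlap, but Trak1-209 went from 24.7% to 21.8%, the other way. Iws1-201 held 52.5%, 56.5% and 59.2% in controls and 32.3%, 38.7% and 46.1% in L-gp130 libraries and Iws1-206 22.6%, 30.8% and 33.8% in controls and 36.5%, 50.1% and 58.97% in L-gp130 libraries (adjusted p = 0.003), at a gene-level fold change of 0.01. Vmp1-201 held 30.4%, 36.8% and 40.7% in controls and 17.1%, 21.2% and 23.4% in L-gp130 libraries (adjusted p = 0.0079), and in CD8 cells it went from 36.1% to 19.4%, again without overlap. It is the transcript whose last exon holds the Mir21a hairpin, 862 bases beyond the end of Vmp1-206, which rose in share from 53.95% to 65.6%. Vmp1-206 is annotated as a processed transcript without a coding sequence, and its start lies 96842 bases from that of Vmp1-201. Sept9-204 went from 70.1% ± 1.20 to 56.03% ± 3.55 (adjusted p = 9.9e-05), with a start 66099 bases from that of Sept9-201.

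Where ends differed, risen transcripts included both shorter and longer 3′ parts. The risen transcript had the shorter 3′ untranslated part in Clpb, Cpsf6, Gse1, Iws1, Kcmf1 and Rpl28, and the longer one in Cox16, Spred2 and Trak1. Cpsf6, itself a subunit of the cleavage factor that sets poly(A) site choice, had Cpsf6-207 at 10.9%, 11.4% and 12.4% in controls and 15.2%, 21.8% and 26.5% in L-gp130 libraries (adjusted p = 0.00018), with 466 bases after the stop codon against 2133 in the falling Cpsf6-208. Kcmf1-204 went from 44.5% to 56.1%, with 300 bases against 1755. Gse1-202 went from 30.2% to 47.5% (adjusted p = 0.00078). Gse1 shares 2758 exon bases with the replication gene Gins2 on the opposite strand, which rose in these cells, and unstranded reads cannot assign that stretch. In the same way Unkl overlaps Gnptg over 1113 bases, Pltp overlaps Ctsa over 495 and Rpl28 overlaps Ube2s over 183. Cox16 overlaps Gm20498 over 2130 bases on the same strand. The shares of Unkl, Pltp, Rpl28 and Cox16 are therefore uncertain.

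Single libraries and other cells set limits on these 18. The F test kept 11 of them without L-gp130 replicate 6, 13 without control replicate 1, 10 without L-gp130 replicate 2, 17 after thinning and 15 when L-gp130 replicate 1 and control replicate 5 were both left out. Of the 29 transcripts with a shift of 10 points and no overlap, 24 had the same sign in the CD8 libraries and 11 had it without overlap. Transcripts of 1 gene share its total, so they do not move independently. Counted by gene, the transcript with the largest shift had the same sign in CD8 cells in 15 of the 18. In a fit of the CD8 libraries 17 of the 18 genes could be tested, and the F test called 3 of them (1.44% of all genes tested in CD8 cells) and Simes' method none (0.191%). Over all 18735 transcripts tested, groups did not overlap in 289 (1.54%) in CD4 and 993 (5.3%) in CD8 cells. Pltp-202 and Spred2-202, which rose in share in CD4 cells, went from 39.02% to 29.8% and from 60.99% to 56.7% in CD8 cells.

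**Figure D5:**
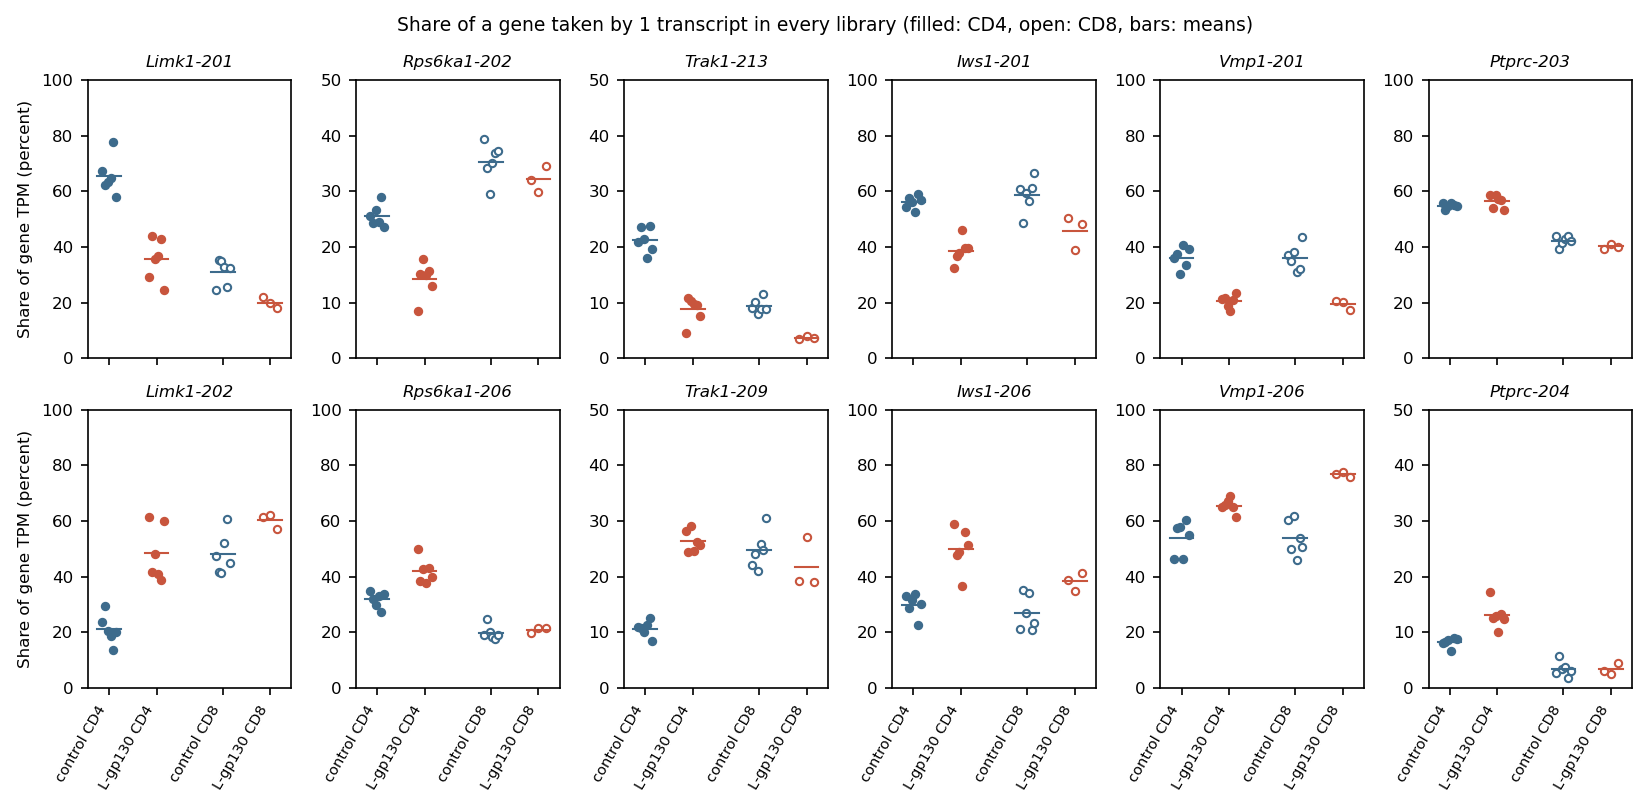
Share of the gene's TPM held by 2 transcripts of each of 6 genes, in percent, with each point a library, filled for CD4 and open for CD8 cells. For Limk1, Rps6ka1, Trak1, Iws1 and Vmp1 the CD4 groups separate in opposite directions in the 2 transcripts, whereas Ptprc shifts by about 5 percentage points at most.

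Ptprc, which encodes CD45, is described because its exon use is a classical marker of T cell activation, and it was chosen with its values known. Ptprc-207 carries the 3 variable exons of 129, 147 and 141 bases, Ptprc-213 the 147-base one only, and Ptprc-203 none of them. From control to L-gp130 cells, the mean share of Ptprc-203 went from 54.9% to 56.5%, that of Ptprc-213 from 17.98% to 14.3% and that of Ptprc-207 from 4.87% to 3.69%, all with overlap. Ptprc-204, which lacks the variable exons and also the next exon of 72 bases, held 6.66%, 8.45% and 8.99% in controls and 10.2%, 12.8% and 17.2% in L-gp130 libraries. These groups did not overlap, and the gene was called by the F test (adjusted p = 0.015) and limma (adjusted p = 0.027), not by Simes (adjusted p = 0.36). In CD8 cells Ptprc-204 was at 3.41% and 3.38%. The skipped exon lies at chr1:138116954-138117025 on the minus strand (GRCm38) and is printed as the base run that separates Ptprc-203 from Ptprc-204.
Ptprc exon: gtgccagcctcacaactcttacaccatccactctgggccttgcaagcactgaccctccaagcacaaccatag

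Usage was not called for the 3 genes of the pathway that were looked at whatever their result, Il6st, Stat3 and Socs3. The mean share of Il6st-201 went from 50.2% to 54.2% and that of Il6st-203 from 41.5% to 43.6%, with an adjusted p of 0.963 by the F test. Ighm, the mu heavy chain of B and plasma cells, showed Ighm-201, which ends before the last exons of Ighm-202, going from 44.8% ± 5.67 to 67.4% ± 7.57 of its TPM (SD, n = 6; adjusted p = 0.022 by the F test and 0.51 by Simes). The plasma cell markers given above moved with it, while the B cell markers went the other way, and the part of either was not tested.

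No difference in the share of a transcript class passed the test. Retained-intron transcripts held 7.38% ± 0.47 of TPM in controls and 7.21% ± 1.29 in L-gp130 cells (SD, n = 6; exact permutation test, two-sided, p = 0.771). Transcripts marked for nonsense-mediated decay held 2.29% ± 0.07 and 2.24% ± 0.17 (exact permutation p = 0.556, adjusted 0.771). The mean 3′ untranslated length of protein-coding transcripts, weighted by TPM within genes, was 4.0 bases shorter in L-gp130 cells (exact permutation p = 0.126, adjusted over these 3 values 0.377). Without L-gp130 replicate 4 it was 5.70 bases shorter, with an adjusted exact permutation p of 0.039.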

How the data were processed

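RNA of splenic CD4 T cells from 6 L-gp130 and 6 control mice was compared, and 9 CD8 libraries served to look up transcript shares. The authors deposited a gene table of estimated counts and, per library, the estimated counts (NumReads) and TPM of every transcript; per the submitters' processing notes the tools were cutadapt 3.4, Trimmomatic 0.39, Salmon 1.5.2 and edgeR 3.34.1 on GRCm38. Per the labels' protocols reads were unstranded, so overlapping genes on opposite strands cannot be separated. Estimated counts were rounded to whole numbers.

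Genes were tested with edgeR 4.0.16 (R 4.3.3): filterByExpr, trimmed-mean factors, robust quasi-likelihood F test, labelled sex as covariate, Benjamini-Hochberg adjustment over 15016 genes. Transcripts were tested in the same way (39131), and usage with edgeR's diffSpliceDGE for transcripts with at least 5% of their gene's reads, with Simes' method as the main gene-level test. Gene IDs were named from GENCODE vM21 for 51115 of 51201, and 694 of 137641 transcripts were not matched. Sums of marker genes are plain CPM, and other levels are trimmed-mean-normalised CPM. Precision was limited by 17781085 to 35869208 reads per library.

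The gene lists and the members described were chosen with earlier results of these data known. For each theme the 2 called genes with the smallest adjusted p, no overlap between groups and no earlier mention were described library by library, except 1 that is not reported here. Usage was named for called genes of 5 CPM or more in which a called transcript shifted by 10 points or more without overlap. A call needed an adjusted p under 0.05.

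Alternatives were other size factors, filters, sex terms, depth thinning, DESeq2 1.42.0, limma 3.58.1, a fit with the replicate number as block, and fits that each omit a library. Chosen after seeing the data were leaving out L-gp130 replicate 1 with control replicate 5, and the joint use of edgeR's F test and limma. On simulated data for the gene comparison (15016 genes) 38%, 70% and 94% of 1.5-fold, 2-fold and 4-fold rises and 70% of 0.5-fold changes were recovered, with 7 false calls of 143. For usage (6694 genes) Simes' method recovered 9% and 30% of shifts of 10 and 20 points with 4 false calls of 43, the F test 28% and 60% with 12 of 100, and limma 30% and 61% with 22 of 113. A comparison of promoter motifs between called and other genes is void, since RefSeq promoters matched 73.6% of the tested genes, under the 80% needed.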

Additional observations from a re-analysis of the deposited data

Results flagged for a closer look

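Of 152 groups of 6 values examined, 12 had a library at the edge of its group by Dixon's criterion at the 95% level, where chance gives about 1 in 20. Casp4 reached 45.3 CPM in L-gp130 replicate 1, with the next library at 29.6 CPM. The same library had the lowest CD4 T cell marker sum of its group, 2809 CPM with the next at 3639 CPM, and the highest macrophage and monocyte marker sum, 2243 CPM with the next at 1047 CPM. L-gp130 replicate 6 had the highest erythroid marker sum, 38300 CPM with the next at 18560 CPM. It also had the highest share of Cox16-202, 30.3% with the next at 23.2%, and the lowest of Cox16-206, 31.5% with the next at 42.3%. Among controls, replicate 6 had the lowest share of Ndufa3-204, 29.9% (next 39.8%). Control replicate 4 had the lowest share of Taf5l-201, 10.8% (next 17.6%), and the highest of Taf5l-202, 85.5% (next 77.8%). Control replicate 1 had the lowest share of Spred2-201, 37.7% (next 43.5%), the highest of Spred2-202, 61.7% (next 56.5%), and the lowest of Unkl-201, 22.0% (next 28.1%).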

How the results depend on the processing

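All 29 genes described library by library passed under every setting that was run for genes. Counts depended more on the setting. Genes higher and lower were 811 and 461 at an adjusted p under 0.01, and lower genes were 1776 without the sex covariate, against 1673 and 1163. With single libraries left out they ranged from 825 (without L-gp130 replicate 6) to 1986 and from 562 (without control replicate 1) to 1656. Transcripts higher numbered 789 with no filter beyond 10 reads and 1904 without the sex covariate, transcripts lower 1374 without it, and single libraries gave 461 to 1630 and 243 to 1088. Usage calls were 99 by limma, 72 by the F test, 61 by both and 12 after thinning, and with libraries left out 0 to 23. With a 10-point shift they were 38 by limma, 36 by the F test, 5 without the sex covariate and 18 by both tests with no overlap at 5 CPM, and 0 to 6 with libraries left out. Of the 18 genes named for usage, 17 could be tested in CD8 cells, where Simes' method called 0 (0 to 0 with libraries left out) and the F test 3. The cause of these differences was not tested. Without control replicate 1 or L-gp130 replicate 6, fewer libraries are left of the labelled sex that is rare in that group.

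The replicate numbers gave no pairing: deviations of same-numbered libraries correlated at 0.0098, 0.151, 0.15, -0.205, -0.0085 and 0.06. With a replicate block, 1432 genes were higher and 842 lower, 292 transcripts higher and 76 lower, and usage calls were 2, of which 0 had a 10-point shift.

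The retained-intron difference of -0.173 points ranged from -0.616 to 0.108 with libraries left out and turned positive without L-gp130 replicate 5 (0.0089) or 6 (0.108). The nonsense-mediated decay difference ranged from -0.088 to 0.0058, positive without L-gp130 replicate 6. The 3′ untranslated length difference ranged from -5.70 to -2.72 bases and passed the test at -5.70, without L-gp130 replicate 4. Depth limits which low genes can be tested, 14443 after thinning against 15016.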

Other observations

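Gene families defined by symbol were counted as well, beside the 11.1% of all genes called higher and the 7.75% called lower. Of 344 zinc finger genes named Zfp 15 were higher and 31 lower, with a median log2 fold change of -0.13. The higher ones numbered 8 without L-gp130 replicate 2 and 6 without L-gp130 replicate 6 or control replicate 1, and the lower ones 47, 49 and 9 without L-gp130 replicates 1, 4 and 6 and 8 without control replicate 1. Of 217 solute carrier genes 25 were higher and 27 lower, or 14 and 13 without L-gp130 replicate 6 and 14 and 10 without control replicate 1. Of 48 interleukin and interleukin receptor genes 10 were higher and 5 lower, the latter 8 without L-gp130 replicate 1, 3 without L-gp130 replicate 6 or control replicate 2 and 1 without control replicate 1. Of 23 collagen genes none was higher and 4 were lower (median -0.36). The 4 were Col1a2, Col3a1, Col5a2 and Col14a1, named after their values were seen, with log2 fold changes of -1.32 (SE 0.24), -2.48 (SE 0.42), -1.29 (SE 0.33) and -2.28 (SE 0.29). Stromal markers, a list that itself holds collagen genes, summed to 11.2 to 23.8 CPM in L-gp130 libraries and 28.4 to 55.1 CPM in controls, and their part in these values was not tested.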
